A study of Arabidopsis thaliana with 76 samples.

Results

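*ss4-1* seedlings of *Arabidopsis thaliana* were compared with WT (Col0) seedlings at the end of the night, when the starch stored during the day before is nearly used up. The comparison holds 8 of the 76 RNA-seq libraries of the series: 2 *ss4-1* and 2 WT libraries at ZT-4, which is 4 h before lights on, and 2 *ss4-1* and 2 WT libraries at ZT0, the moment of lights on. All of these seedlings grew at 17°C in short days, with 8 h of light at 170 umol and 16 h of darkness, and each library came from a pool of 25 seedlings according to the sample labels. *ss4-1* is a mutant of *SS4* in the Col0 background and a single allele was used. For orientation, *pgm*, *ss3/4*, and *ss3/4/pgm* seedlings at ZT0 (2 libraries each, same ecotype, temperature, and day length) were set beside the same WT libraries, and *ss4-1* and WT at ZT1 and ZT2 (8 libraries) served to compare the night with the first hours of light. The libraries were chosen by genotype and time point, not by any measured value. Total counts in the 8 libraries lay between 6741233 and 13495113. Nothing in the labels says whether replicates came from separate plantings, so the p-values below measure the spread between these libraries, which may be technical.

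*SS4* encodes a soluble starch synthase of the chloroplast stroma that takes part in starting new starch granules. A leaf makes starch in the light and degrades it through the night at a rate that leaves a small reserve at dawn, and the sugars released feed the plant until light returns. When carbon runs out before dawn, as in the starchless mutant *pgm*, which lacks plastid phosphoglucomutase, the kinase SnRK1 is released from inhibition and a well-known set of genes is induced. They include the dark-induced *DIN* genes, the dormancy-associated genes, the breakdown pathways of branched-chain amino acids and lysine, which provide respiratory substrates in place of sugar, and genes of autophagy. The comparison asks whether seedlings with the *ss4-1* mutation show this response before dawn.

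None of the *DIN* genes rose in *ss4-1*, and the median log2 fold changes of the carbon-shortage lists lay between -0.10 for the *DIN* genes and 0.17 for the *ATG8* genes of autophagy, of which 9 of 9 lay above 0 and 0 were called. Of 20013 genes tested, 88 (0.44%) were higher and 126 (0.63%) were lower in *ss4-1* once p-values of edgeR's quasi-likelihood F-test, with time point as a term, were adjusted by Benjamini-Hochberg and held to 0.05. Together these were 1.07% of genes. Values of all *ss4-1* libraries lay above all WT libraries at both time points for 6.66% of genes and below for 7.59%. The median log2 fold change over all genes was 0.003. An unadjusted p under 0.05 was reached by 16.9% of genes, 8.35% higher and 8.52% lower, and the unadjusted counts given for gene lists below are to be read against these shares. Within the carbon-shortage lists, a pair of dormancy-associated genes rose and 3 genes fell, and these 5 genes are described in full below.

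The libraries did not contribute evenly to this count. Correlations between the genotypes were about as high as between replicates. For the library labelled *ss4-1* replicate 1 at ZT-4, the Pearson correlation of log2 CPM across genes was 0.989 and 0.987 with the WT libraries of ZT-4 and 0.986 with *ss4-1* replicate 2 of the same time. For *ss4-1* replicate 2 at ZT0 it was 0.985 and 0.989 with the WT libraries of ZT0 and 0.989 with *ss4-1* replicate 1. CPM are counts scaled to a common library total after TMM normalization. This pair of *ss4-1* libraries also differed most among the pairs of the comparison, with a chi-square per degree of freedom of 7.41, against 4.15 for the *ss4-1* pair at ZT0 and 4.29 and 3.11 for the WT pairs at ZT-4 and ZT0. Without *ss4-1* replicate 1 of ZT-4 the test called 1810 genes, 987 higher and 823 lower, and all 214 genes called with 8 libraries were among them. Without each of the other libraries it called between 23 and 101 genes. The count fell to 70 without *ss4-1* replicate 2 of ZT-4, to 29 and 23 without *ss4-1* replicates 1 and 2 of ZT0, to 53 and 78 without WT replicates 1 and 2 of ZT-4, and to 45 and 101 without WT replicates 1 and 2 of ZT0. The number of calls thus changed more than 1.5 times with any single library. The called members of gene lists are therefore given below with their values in every library. Some of the largest changes are given only as averages or ranges.

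**Figure D1:**
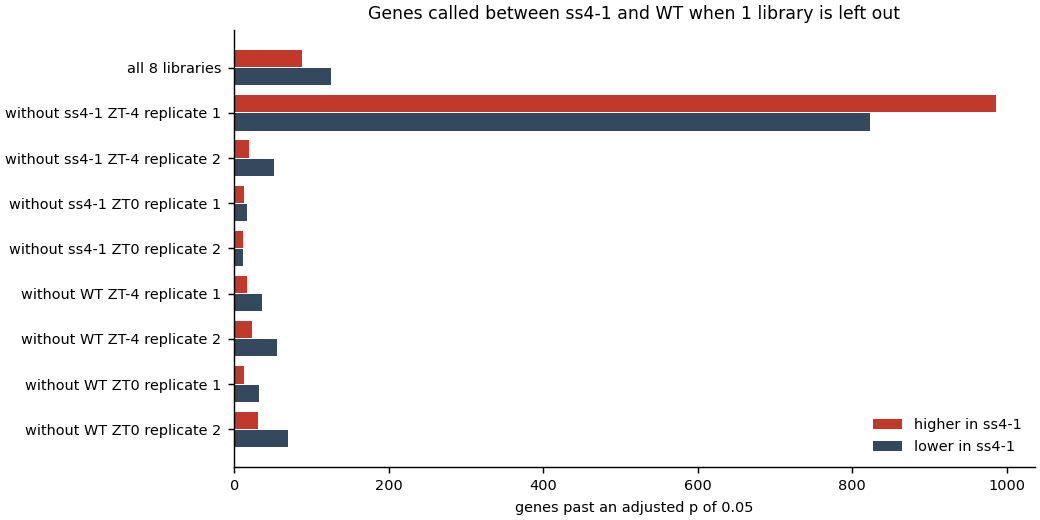
Number of genes past an adjusted p of 0.05 between *ss4-1* and WT (x axis) with all 8 libraries and with each library left out (rows). Red bars are genes higher and dark bars genes lower in *ss4-1*. The count is 88 and 126 with all libraries, 987 and 823 without *ss4-1* replicate 1 of ZT-4, and smaller than with all libraries in each of the other 7 rows.

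*SS4* itself was not called different in level between the genotypes. It had 126 and 107 CPM at ZT-4 and 64.4 and 60.4 CPM at ZT0 in *ss4-1*, against 129 and 124 CPM at ZT-4 and 67.0 and 66.6 CPM at ZT0 in WT. The log2 fold change was -0.11 ± 0.07 (SE), with a 95% interval of -0.26 to 0.04 and an adjusted p of 0.44. The *ss3/4* double mutant, which also carries an *ss4* mutation, had 53.1 and 50.2 CPM at ZT0, against 56.1 and 56.0 CPM in WT in the same normalization. *SS4* was lower in *ss3/4/pgm*, with 32.5 and 32.9 CPM (log2 fold change -0.78, adjusted p 3.6e-06), and in *pgm*, with 34.3 and 33.2 CPM (-0.73, adjusted p 2.6e-05). The deposited value is a sum of reads over the gene (chromosome 4, 10082108 to 10087203 on TAIR10), which does not show where along the transcript the reads lie, so it is no check of the *ss4-1* label in either direction. AT5G35935, described with the largest changes below, separated the genotypes in all 8 libraries. It was singled out by the smallest p-value of this same comparison, so it is no check of the label either.

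The genes of the carbon-shortage lists that passed the test stand at the centre of the comparison, and the 250 bases before their gene start in TAIR10.1 (RefSeq) are shown for the pair that rose and the pair that fell furthest. Capitals mark 3 short motifs, searched on both strands and spelled on the strand shown: ACTCAT, known as a binding motif of S1 group bZIP factors in the promoter of a proline dehydrogenase gene, ACGTG, the core of many bZIP binding sites, and TATCCA, a sugar-response element described in rice amylase promoters.

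DYL1 (chr1:9935441-9935690, minus strand): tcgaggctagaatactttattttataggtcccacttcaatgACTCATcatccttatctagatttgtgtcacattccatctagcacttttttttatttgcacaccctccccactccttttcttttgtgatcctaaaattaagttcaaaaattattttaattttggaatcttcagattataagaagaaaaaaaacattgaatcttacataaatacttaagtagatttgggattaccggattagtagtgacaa
AT2G33830 (chr2:14310609-14310858, minus strand): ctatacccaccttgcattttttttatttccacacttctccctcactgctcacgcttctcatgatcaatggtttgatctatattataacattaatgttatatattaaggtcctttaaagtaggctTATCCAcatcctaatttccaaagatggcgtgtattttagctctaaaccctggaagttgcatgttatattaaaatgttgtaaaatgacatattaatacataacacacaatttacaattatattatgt
BCAT-2 (chr1:3287837-3288086, plus strand): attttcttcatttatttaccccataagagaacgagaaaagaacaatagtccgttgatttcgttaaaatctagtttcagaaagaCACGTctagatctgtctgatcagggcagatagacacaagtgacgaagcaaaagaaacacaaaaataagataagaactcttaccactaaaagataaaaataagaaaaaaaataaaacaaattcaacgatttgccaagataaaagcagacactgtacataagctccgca
AT1G21400 (chr1:7492963-7493212, plus strand): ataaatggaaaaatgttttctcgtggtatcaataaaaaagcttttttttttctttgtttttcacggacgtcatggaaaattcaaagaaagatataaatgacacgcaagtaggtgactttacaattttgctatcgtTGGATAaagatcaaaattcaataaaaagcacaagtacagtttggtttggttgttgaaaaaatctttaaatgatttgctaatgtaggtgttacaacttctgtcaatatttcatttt

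*DYL1* has 1 ACTCAT match 209 bases before the gene start, AT2G33830 has 1 TATCCA match 126 bases before it, *BCAT-2* has 1 ACGTG match 167 bases before it (on the other strand), and AT1G21400 has 1 TATCCA match 115 bases before it (on the other strand). Over the 250 bases before 33047 annotated genes, ACTCAT is found in 12.7%, ACGTG in 21.8%, and TATCCA in 13.5%. No motif was shared by all 4 genes. The 2 genes that rose did not share a motif with each other. *DIN10*, the third gene that fell, is not shown. It has 1 ACGTG match 43 bases before its gene start, the motif also found for *BCAT-2*.

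*DYL1* and AT2G33830 are related dormancy-associated genes, also called *DRM1* and *DRM2*, whose transcripts accumulate in growth-arrested buds and in sugar-starved tissue. *DYL1* (DRM1 AT1G28330) had 89.9 and 132 CPM at ZT-4 and 50.8 and 45.4 CPM at ZT0 in *ss4-1*, against 69.3 and 68.2 CPM at ZT-4 and 30.5 and 29.3 CPM at ZT0 in WT. Every *ss4-1* library lay above both WT libraries of its time point. *DYL1* rose 1.61-fold (log2 fold change 0.69 ± 0.10, adjusted p 0.00645), and *DYL1* stayed past the threshold with each of the 8 libraries left out in turn. The call was lost with all 32 libraries in the fit (adjusted p 0.0582), with the ZT-4 libraries only (0.383), and without a time term (0.56). AT2G33830 had 127 and 211 CPM at ZT-4 and 66.6 and 71.1 CPM at ZT0 in *ss4-1*, against 111 and 115 CPM at ZT-4 and 42.9 and 40.4 CPM at ZT0 in WT. The genotypes did not overlap at either time point, although at ZT-4 the gap between *ss4-1* replicate 1 and WT was small. AT2G33830 rose 1.56-fold (log2 fold change 0.65 ± 0.12, adjusted p 0.028), and the call was lost without *ss4-1* replicate 2 of ZT-4, either *ss4-1* library of ZT0, WT replicate 1 of ZT-4, or either WT library of ZT0 (adjusted p 0.057 to 0.103).

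*BCAT-2* and AT1G21400 act in the breakdown of leucine, isoleucine, and valine. *BCAT-2* encodes a mitochondrial branched-chain aminotransferase, and AT1G21400 encodes an E1 alpha subunit of the branched-chain 2-oxoacid dehydrogenase. *BCAT-2* had 7.05 and 16.3 CPM at ZT-4 and 7.65 and 9.36 CPM at ZT0 in *ss4-1*, against 20.9 and 18.5 CPM at ZT-4 and 22.6 and 13.9 CPM at ZT0 in WT. All *ss4-1* values lay below the WT values of the same time. *BCAT-2* fell by 0.89 ± 0.20 on the log2 scale, to 0.54 of WT (adjusted p 0.049), and the locus overlaps AT1G10090, so reads of both cannot be told apart without strand. AT1G21400 had 27.3 and 50.7 CPM at ZT-4 and 38.6 and 40.6 CPM at ZT0 in *ss4-1*, against 63.9 and 52.1 CPM at ZT-4 and 72.8 and 57.3 CPM at ZT0 in WT. It fell by 0.64 ± 0.14 on the log2 scale, to 0.643 of WT (adjusted p 0.045). Both calls are near the threshold: each was lost when either *ss4-1* library of ZT0 or any WT library was left out (adjusted p 0.053 to 0.163 for *BCAT-2* and 0.058 to 0.157 for AT1G21400), and both were lost with DESeq2 (0.123 and 0.128).

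**Figure D2:**
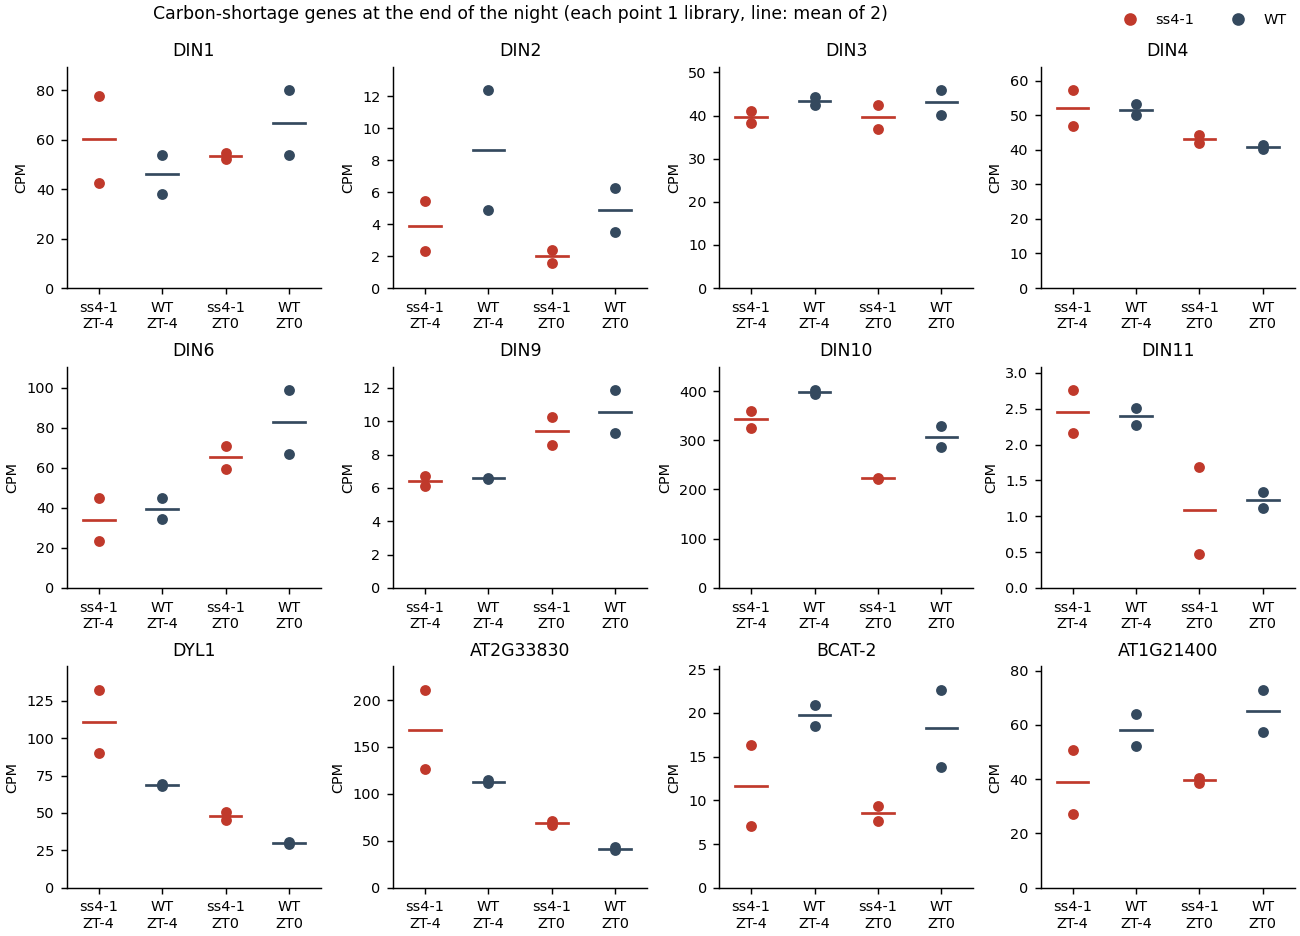
CPM (y axis, from 0) of the 8 *DIN* genes and of *DYL1*, AT2G33830, *BCAT-2*, and AT1G21400 in each library, with *ss4-1* in red and WT in dark blue at ZT-4 and at ZT0; points are libraries and lines are means of 2. *DYL1* and AT2G33830 lie higher in *ss4-1* at both times, *BCAT-2*, AT1G21400, and *DIN10* lie lower, and the points of the other *DIN* genes overlap at ZT-4, at ZT0, or at both.

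The *DIN* genes are transcripts first found in darkened leaves and are repressed by sugar. Of 8 members, all tested, 0 rose and 1 fell, and the median log2 fold change was -0.10. With 1 library left out this median ranged from -0.178, without *ss4-1* replicate 2 of ZT-4, to -0.0438, without WT replicate 1 of ZT0. *DIN10*, annotated as a raffinose synthase family gene, had 325 and 360 CPM at ZT-4 and 222 and 224 CPM at ZT0 in *ss4-1*, against 402 and 394 CPM at ZT-4 and 329 and 285 CPM at ZT0 in WT. The values did not overlap at either time point, and *DIN10* fell by 0.34 ± 0.08 on the log2 scale (adjusted p 0.048). This call was lost without either *ss4-1* library of ZT0 or any WT library (adjusted p 0.074 to 0.181).

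*DIN1*, also called *SEN1*, is a senescence-associated gene of the rhodanese family and is among the transcripts that respond most to darkness. It had 42.6 and 77.7 CPM at ZT-4 and 54.5 and 52.0 CPM at ZT0 in *ss4-1*, against 53.8 and 38.2 CPM at ZT-4 and 80.0 and 53.8 CPM at ZT0 in WT. The genotypes overlapped at both time points, and the log2 fold change was 0.04 with a 95% interval of -0.35 to 0.43. *DIN6*, the asparagine synthetase gene *ASN1*, had 23.56 and 44.8 CPM at ZT-4 and 70.9 and 59.5 CPM at ZT0 in *ss4-1*, against 44.7 and 34.6 CPM at ZT-4 and 98.8 and 67.0 CPM at ZT0 in WT. Its libraries also overlapped at both times, and its log2 fold change was -0.29 with an interval of -0.63 to 0.05. *DIN2*, a beta-glucosidase gene, had 2.32 and 5.43 CPM at ZT-4 and 1.59 and 2.38 CPM at ZT0 in *ss4-1*, against 4.92 and 12.4 CPM at ZT-4 and 6.29 and 3.54 CPM at ZT0 in WT. Its log2 fold change of -1.18 ± 0.31 missed the threshold (adjusted p 0.074).

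*DIN3* and *DIN4* encode the E2 and E1 beta subunits of the branched-chain 2-oxoacid dehydrogenase, *DIN9* encodes a mannose-6-phosphate isomerase, and *DIN11* a dioxygenase. Their log2 fold changes were -0.12 (95% interval -0.28 to 0.04), 0.04 (-0.12 to 0.20), -0.09 (-0.36 to 0.19), and 0.04 (-0.53 to 0.62), in that order, and each overlapped between genotypes at ZT-4, at ZT0, or at both. The locus of *DIN4* overlaps AT3G13445. For *DIN3* and *DIN4* these intervals leave room for a rise of at most 0.20 on the log2 scale. *DIN11*, at 0.48 to 2.76 CPM across the libraries, is too low for a bound of that kind.

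The sugar-repressed list holds 20 genes, of which 19 were tested (*BZIP1* did not pass the filter on low counts). It contains *DYL1* and AT2G33830, which rose, and *BCAT-2*, which fell. Its median log2 fold change was 0.01. The members' log2 fold changes ran from -0.89 to 0.69, with 11 above and 8 below 0, and 2 were higher and 2 lower at an unadjusted p under 0.05, near the share of 16.9% over all genes. DESeq2 called the same number higher and 0 lower.

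Of the 16 genes of branched-chain amino acid and lysine breakdown, all tested, 0 rose and 2 fell, with a median log2 fold change of -0.07. Besides *BCAT-2* and AT1G21400, 0 had an unadjusted p under 0.05, and the highest member lay at 0.14. DESeq2 called 0 in either direction. The *DIN3* and *DIN4* subunits described above belong to the same enzyme complex as AT1G21400.

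The genes of sugar signalling did not pass the test in either direction. Among 7 class II trehalose-phosphate synthase genes, whose sugar-regulated transcripts mark carbon status, 0 passed and 0 had an unadjusted p under 0.05, and the median log2 fold change was -0.03. *TPS8* had 95.7 and 111 CPM at ZT-4 and 128 and 127 CPM at ZT0 in *ss4-1*, against 93.0 and 83.2 CPM at ZT-4 and 141 and 138 CPM at ZT0 in WT: it was above WT at ZT-4 and below WT at ZT0, with time-point log2 fold changes of 0.23 and -0.13 and no difference between them past the threshold. Among 10 tested genes of SnRK1 subunits and C/S1 bZIP factors, 0 passed. At an unadjusted p under 0.05, 2 were higher and 1 lower, and DESeq2 called 1 higher. The bZIP genes tested were *BZIP9*, *BZIP10*, *BZIP25*, and *BZIP63*, so no factor of the S1 group was tested. *BZIP2*, *BZIP11*, and *BZIP53* were absent from the counts, and *BZIP1* and *BZIP44* did not pass the filter on low counts. *KIN10*, a catalytic subunit, averaged 64.3 CPM in *ss4-1* and 64.6 CPM in WT (95% interval of the log2 fold change -0.17 to 0.17). *AKINBETA1*, a regulatory subunit repressed by sugar, had a log2 fold change of 0.15 (interval -0.03 to 0.32).

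The 9 *ATG8* genes encode the ubiquitin-like proteins that coat forming autophagosomes. All 9 had a positive log2 fold change, with a median of 0.17, against 0.003 over all genes. Of these, 0 passed the test, while 4 had an unadjusted p under 0.05, where 8.35% of all genes were higher at that p, and DESeq2 called 1, *ATG8F* (0.021). *ATG8F* had 119 and 136 CPM at ZT-4 and 155 and 143 CPM at ZT0 in *ss4-1*, against 107 and 103 CPM at ZT-4 and 123 and 122 CPM at ZT0 in WT. The *ss4-1* values lay above the WT values at both times, with a log2 fold change of 0.28 ± 0.07 and an adjusted p of 0.058. *APG8A* (*ATG8A*) had 57.7 and 73.3 CPM at ZT-4 and 59.4 and 64.3 CPM at ZT0 in *ss4-1*, against 51.0 and 51.5 CPM at ZT-4 and 50.7 and 52.4 CPM at ZT0 in WT, a log2 fold change of 0.31 ± 0.08 (adjusted p 0.065); its locus overlaps AT4G21990. Without *ss4-1* replicate 1 of ZT-4, 3 *ATG8* genes were called higher and the list median was 0.27. Without each of the other 7 libraries 0 were called, and the median was lowest, at 0.0992, without *ss4-1* replicate 2 of ZT-4. Without a filter on low counts 2 were called.

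The same lists looked different in *pgm* at ZT0, set against the same WT libraries. In *pgm*, 29.9% of 19622 genes were higher and 28.8% were lower than in WT (58.7% in either direction), and all 8 *DIN* genes were higher, with a median log2 fold change of 3.71. The *pgm* replicates differed more than any pair of the main comparison, with a chi-square per degree of freedom of 11. They had 6836099 and 3204754 total counts, of which 0.632% and 3.05% fell on organelle genes. *DIN1* had 2846 and 3934 CPM in *pgm*, 45.4 and 43.7 CPM in *ss4-1*, and 66.9 and 45.2 CPM in WT. *DIN6* had 3023 and 3341 CPM in *pgm*, 59.1 and 49.96 CPM in *ss4-1*, and 82.7 and 56.3 CPM in WT. *BCAT-2* (*BCAT2*) had 643 and 625 CPM in *pgm*, 6.38 and 7.86 CPM in *ss4-1*, and 18.9 and 11.6 CPM in WT. For these genes *pgm* lay far above both, and *ss4-1* overlapped with WT or lay under it. *DYL1* (*DRM1*) had 178 and 217 CPM in *pgm*, 42.4 and 38.1 CPM in *ss4-1*, and 25.5 and 24.6 CPM in WT, so the direction was shared and the size was not: the log2 fold change against WT was 2.96 in *pgm*.

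Tested directly against *pgm* at ZT0, *ss4-1* was lower for 8 of 8 *DIN* genes (median log2 difference -3.94), where 27.8% of all genes were lower, 25.8% higher, and 53.6% different in either direction. It was lower for 18 of 19 sugar-repressed genes, 13 of 16 genes of branched-chain amino acid and lysine breakdown, and 7 of 9 *ATG8* genes, with medians of -2.74, -3.29, and -1.01. The difference for *DIN1* (*SEN1*) was -6.25 and for *DIN6* (*ASN1*) -5.87 on the log2 scale. In *ss3/4* and *ss3/4/pgm*, 8 of 8 *DIN* genes were higher than in WT as well, with medians of 3.30 and 3.69, where 31.3% and 31.6% of genes were higher and 60.3% and 63.1% differed in either direction. The *pgm*, *ss3/4*, and *ss3/4/pgm* libraries correlated with each other at 0.960 to 0.989 and with the *ss4-1* and WT libraries at only 0.883 to 0.915, against 0.984 to 0.990 among the *ss4-1* and WT libraries. Genotype and a separate set of libraries cannot be told apart in these contrasts. Since the comparisons against WT share the WT libraries of ZT0, no overlap between them was computed.

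**Figure D3:**
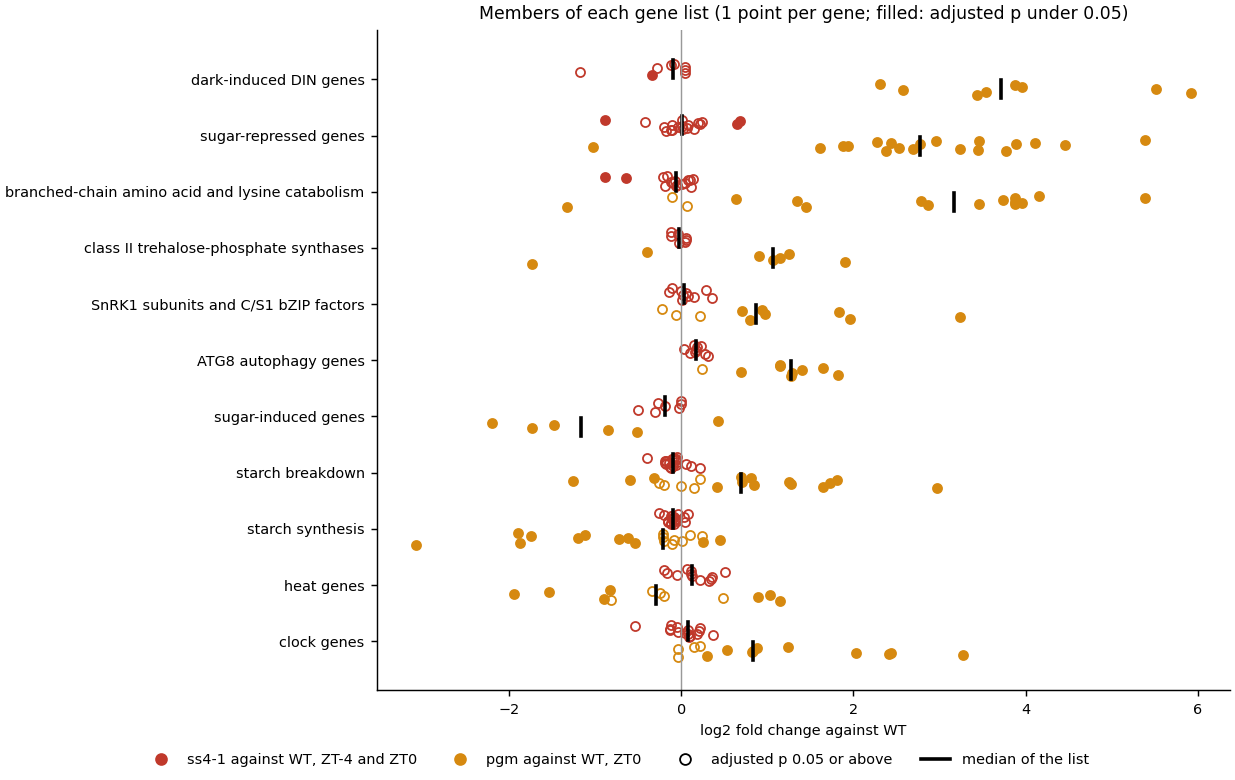
Log2 fold change against WT (x axis) of each tested member of 11 gene lists, for *ss4-1* at ZT-4 and ZT0 together (red, upper row of each list) and *pgm* at ZT0 (orange, lower row); filled points have an adjusted p under 0.05 and black bars are list medians. The *DIN* medians are -0.10 in *ss4-1* and 3.71 in *pgm*, and the *ATG8* medians are 0.17 and 1.27.

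Genes that sugar induces and genes of starch metabolism also had 0 calls in the edgeR test of both time points. All 7 tested sugar-induced genes had a negative log2 fold change over both time points together, with a median of -0.19. Of these, 2 had an unadjusted p under 0.05, 0 passed the test, and DESeq2 called 1 lower. By time point, 6 of 7 lay below 0 at ZT-4 (median -0.16) and 3 of 7 at ZT0 (median 0.0139). The nitrate reductase genes *NIA1* and *NIA2* had log2 fold changes of -0.01 each. *TT4*, the chalcone synthase gene that opens flavonoid synthesis, had 167 and 133 CPM at ZT-4 and 87.6 and 79.1 CPM at ZT0 in *ss4-1*, against 189 and 199 CPM at ZT-4 and 98.7 and 97.8 CPM at ZT0 in WT, a log2 fold change of -0.31 (adjusted p 0.065); its locus overlaps AT5G13940. Of 19 starch breakdown genes, 16 had a negative log2 fold change (median -0.10), 1 was higher and 2 were lower at an unadjusted p under 0.05, and 0 were called by edgeR or DESeq2. The time points differed: at ZT-4 17 of 19 lay below 0 (median -0.203), and at ZT0 11 lay above 0 (median 0.0175), with 0 called at either. *CT-BMY* (*BAM3*), the main plastid beta-amylase of leaves at night, had 337 and 315 CPM at ZT-4 and 260 and 292 CPM at ZT0 in *ss4-1*, against 443 and 390 CPM at ZT-4 and 255 and 294 CPM at ZT0 in WT. It was lower in *ss4-1* at ZT-4 and overlapped with WT at ZT0, and its locus overlaps AT4G17085. Of 19 starch synthesis genes, 16 were below 0 (median -0.09), 1 had an unadjusted p under 0.05, and 0 were called by either tool.

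Single members passed in the lists of nutrient genes. *NRT1.1*, the dual-affinity nitrate transporter, had 67.3 and 60.5 CPM at ZT-4 and 88.6 and 79.9 CPM at ZT0 in *ss4-1*, against 83.1 and 92.2 CPM at ZT-4 and 101 and 101 CPM at ZT0 in WT. It fell by 0.36 ± 0.07 on the log2 scale (adjusted p 0.035), the only one of 10 nitrate assimilation genes called. *SQD2*, which makes the sulfolipid that replaces phospholipid under phosphate shortage, had 50.7 and 43.9 CPM at ZT-4 and 43.0 and 41.3 CPM at ZT0 in *ss4-1*, against 58.6 and 57.9 CPM at ZT-4 and 56.4 and 52.3 CPM at ZT0 in WT. It fell by 0.33 ± 0.07 (adjusted p 0.041), the only one of 14 tested phosphate-starvation genes called. All 14 had a negative log2 fold change over both time points together (median -0.18). By time point, 11 of 14 lay below 0 at ZT-4 (median -0.281) and 9 of 14 at ZT0 (median -0.0804). The root markers described at the end lay on the same side, with 8 of 9 below 0 and a median of -0.17, and their part in the nutrient lists was not tested. Both calls held only with all 8 libraries or without *ss4-1* replicate 1 of ZT-4: leaving out any of the other 7 gave an adjusted p of 0.058 to 0.134 for *NRT1.1* and 0.073 to 0.156 for *SQD2*.

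The effect of *ss4-1* differed between ZT0 and ZT-4 for 1 gene, 0.005% of those tested. *G3Pp1*, a gene annotated as a putative glycerol-3-phosphate transporter and a member of the phosphate-starvation list, had 19.6 and 18.1 CPM in *ss4-1* and 37.5 and 34.6 CPM in WT at ZT-4. At ZT0 it had 99.7 and 101 CPM in *ss4-1* and 85.7 and 77.9 CPM in WT. It was lower in *ss4-1* 4 h before lights on and higher at lights on, and the difference of the log2 fold changes was 1.23 (adjusted p 0.017). The call was lost without either ZT0 library of *ss4-1* or any WT library, and in the fit of 32 libraries. Taken by time point in this fit, 5 genes were higher and 5 lower in *ss4-1* at ZT-4 (0.025% each), and 5 higher (0.025%) and 4 lower (0.02%) at ZT0. Across all genes, 839 of 20013 had an unadjusted p under 0.05 for this difference. In the list of 14 light-harvesting and Rubisco genes, 14 of 14 had a larger log2 fold change at ZT0 than at ZT-4 (median difference 0.33), 5 with an unadjusted p under 0.05 and 0 past the threshold. The summed level of the list was 20690 and 22620 CPM at ZT-4 and 49410 and 39780 CPM at ZT0 in *ss4-1*, against 22220 and 24060 CPM at ZT-4 and 36230 and 38390 CPM at ZT0 in WT. The highest sum was in *ss4-1* replicate 1 of ZT0, the shallowest library. Without that library the list's median log2 fold change over both time points together was 0.00365, against 0.0984 with all 8 libraries. The part of this library in the difference between time points was not tested. Other lists showed the same direction. It was found for 10 of 10 nitrate assimilation genes (median difference 0.209, 3 with an unadjusted p under 0.05). It was also found for 17 of 19 starch breakdown genes (0.214, 4 with such a p), with 0 past the threshold in both lists. In contrast, 14 of 19 sugar-repressed genes had a smaller log2 fold change at ZT0 than at ZT-4.

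Of 22 heat genes, only 12 passed the filter on low counts before dawn, and 0 of these were called. At ZT1 and ZT2, 18 of 21 heat genes were higher in *ss4-1* (median 2.15), where 0.469% of genes were higher and 0.657% differed. *HSP70* had 8.96 and 8.44 CPM at ZT-4 and 8.44 and 11.7 CPM at ZT0 in *ss4-1*, against 9.01 and 7.02 CPM at ZT-4 and 9.92 and 9.61 CPM at ZT0 in WT, a log2 fold change of 0.11 (adjusted p 0.72). *HSP101*, a disaggregase required for acquired thermotolerance, had 11.1 and 10.9 CPM at ZT-4 and 11.8 and 13.3 CPM at ZT0 in *ss4-1*, against 9.65 and 12.7 CPM at ZT-4 and 11.7 and 11.1 CPM at ZT0 in WT, a log2 fold change of 0.06 (adjusted p 0.84). *HSP70* overlapped between genotypes at both time points. *HSP101* overlapped at ZT-4 and lay narrowly higher in *ss4-1* at ZT0, and its locus overlaps AT1G74300. Of 12 tested heat genes, 0 were called by edgeR or DESeq2, with 2 higher and 1 lower at an unadjusted p under 0.05 and a median of 0.12. In the fit of all 32 *ss4-1* and WT libraries at 17°C, the *ss4-1* effect before dawn was lower than at ZT1 and ZT2 by 1.79 for *HSP70* (adjusted p 0.029) and by 1.80 for *HSP101* (3.3e-05), and 7 of 21 heat genes were called in that direction, where 0.111% of all genes were (0.00967% in the other direction). Heat genes too low for the filter before dawn entered this fit through other time points, so they do not test that direction. The 18 of 21 at ZT1 and ZT2 and the median of 2.15 include such genes, so these values are no independent test of a rise there. *HSP70* and *HSP101* passed the filter before dawn as well. For the 19 sugar-repressed genes the median difference was 0.36, with 0 called and 8 higher at an unadjusted p under 0.05, which 4.93% of all genes had in either direction. At ZT1 and ZT2 these 19 genes had a median of -0.37 in *ss4-1* against WT, with 2 called lower, where 0.188% of all genes were.

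Through the day, the dormancy-associated genes and *DIN10* were highest at ZT12, 4 h into the night, in both genotypes. *DYL1* (*DRM1*) had 417 and 269 CPM in *ss4-1* and 240 and 219 CPM in WT at ZT12, and 260 and 210 CPM in *ss4-1* and 141 and 114 CPM in WT at ZT16. *BCAT-2* (*BCAT2*) had 99.5 and 96.6 CPM in *ss4-1* and 66.6 and 39.0 CPM in WT at ZT12. *DIN6* had 237 and 221 CPM in *ss4-1* and 133 and 116 CPM in WT at ZT12. *ss4-1* was the higher genotype early in the night for all of these genes, and by ZT-4 and ZT0 this held only for *DYL1* and AT2G33830 among the 5 carbon genes plotted; the change of order was not tested.

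**Figure D4:**
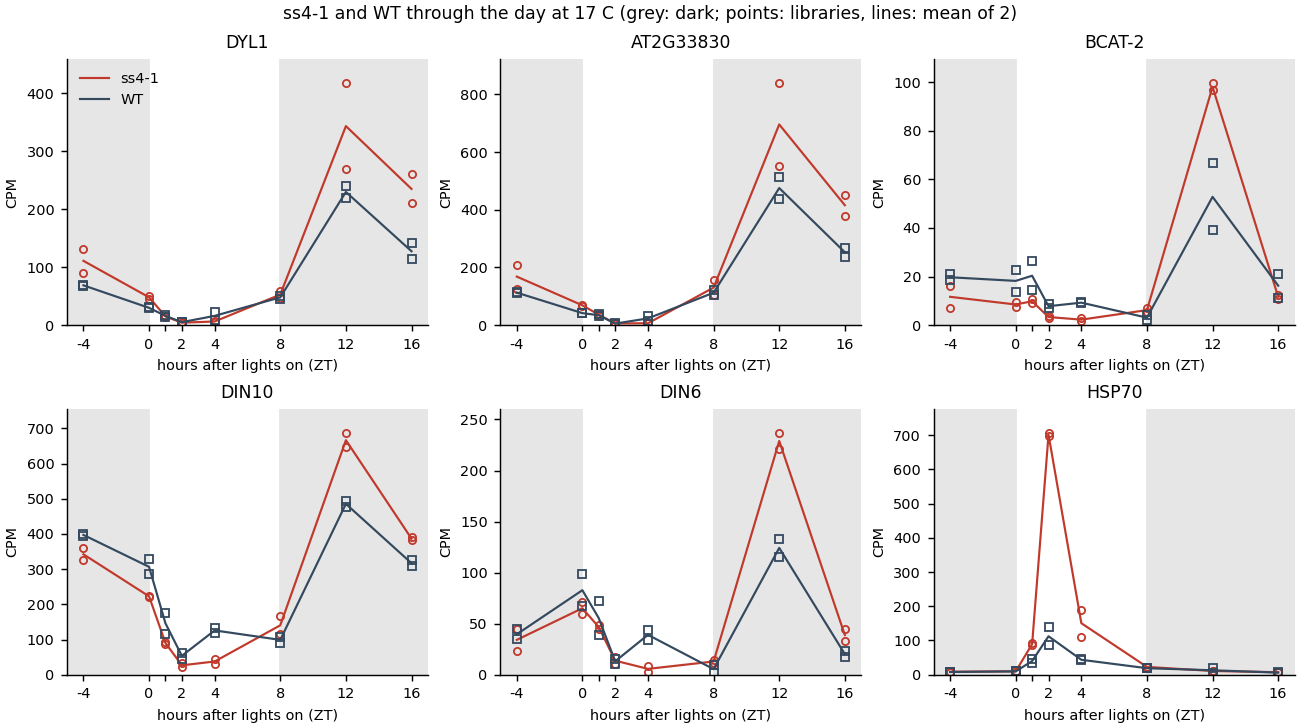
CPM (y axis, from 0) of *DYL1*, AT2G33830, *BCAT-2*, *DIN10*, *DIN6*, and *HSP70* in *ss4-1* (red circles) and WT (dark squares) against hours after lights on (x axis), at 17°C; grey areas are dark, points are libraries, and lines join means of 2. The 5 carbon genes peak at ZT12 in both genotypes, and *HSP70* peaks at ZT2, with 707 and 696 CPM in *ss4-1* and 86.1 and 139 CPM in WT.

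The largest changes at the end of the night lay outside the carbon lists. The rule took the 12 largest rises and the 12 largest falls past the threshold among 85 rises and 121 falls that did not overlap at either time point and averaged at least 10 counts. AT5G35935, annotated as an uncharacterized protein (chromosome 5, 14083388 to 14089891 on TAIR10), had 27.8 and 24.6 CPM at ZT-4 and 27.7 and 25.5 CPM at ZT0 in *ss4-1*, against 4.92 and 3.03 CPM at ZT-4 and 3.15 and 2.93 CPM at ZT0 in WT. It rose 7.44-fold (log2 fold change 2.90 ± 0.14, adjusted p 1.6e-08), and both *ss4-1* libraries of ZT-4 carried the high level. *PME61*, a pectin methylesterase gene, had 7.88 and 4.93 CPM at ZT-4 and 5.89 and 5.99 CPM at ZT0 in *ss4-1*, against 0.637 and 0.693 CPM at ZT-4 and 0.847 and 1.52 CPM at ZT0 in WT. Pectin methylesterases trim methyl groups from cell wall pectin, and *PME61* rose 6.73-fold (2.75 ± 0.26, adjusted p 1.3e-04). AT4G04223, annotated as an RNA without a protein product, had 13.4 and 17.1 CPM at ZT-4 and 14.2 and 15.4 CPM at ZT0 in *ss4-1*, against 4.28 and 4.5 CPM at ZT-4 and 6.05 and 5.56 CPM at ZT0 in WT. It rose 2.99-fold (adjusted p 4.2e-05). These 3 were the only rises of the 12 to stay past the threshold under every alternative that tested them, and none of the 12 falls did. Of the genes named here as past the threshold between *ss4-1* and WT, only these 3 stayed past it with the ZT-4 libraries only. With 1 library left out at a time, *LBD26* and AT4G22753 also stayed past it each time, as did the falls AT5G39580 and AT5G35940.

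The other rises were smaller or rested on few counts. *LBD26*, a LOB domain transcription factor gene, had 4.15 and 4.43 CPM at ZT-4 and 3.35 and 3.45 CPM at ZT0 in *ss4-1*, against 0.819 and 1.47 CPM at ZT-4 and 0.605 and 1.21 CPM at ZT0 in WT (log2 fold change 1.87). *GH9B15*, a glycosyl hydrolase family 9 gene, averaged 3.11 CPM in *ss4-1* and 0.702 CPM in WT and was at 0 in 1 WT library. *MYB47* averaged 3.88 CPM in *ss4-1* and 1.49 CPM in WT. *FLC*, the MADS-box repressor of flowering, had 14.2 and 24.7 CPM at ZT-4 and 15.6 and 17.1 CPM at ZT0 in *ss4-1*, against 10.1 and 12.5 CPM at ZT-4 and 8.47 and 11.9 CPM at ZT0 in WT, and rose 1.67-fold (adjusted p 0.041), a call lost in 6 of the 8 single omissions (0.074 to 0.148). The remaining 5 rises, AT5G15360, AT5G34871, *SADHU6-1*, AT3G42806, and AT4G22753, had log2 fold changes between 0.81 and 1.70, and the locus of AT4G22753 overlaps AT4G22750.

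Among the falls were a threonine aldolase gene, an ACC synthase gene, and 2 peroxidase superfamily genes. *THA1*, a threonine aldolase that splits threonine, had 6.47 and 16.1 CPM at ZT-4 and 4.62 and 5.07 CPM at ZT0 in *ss4-1*, against 22.2 and 22.9 CPM at ZT-4 and 23.2 and 16.8 CPM at ZT0 in WT. It fell by 1.40 ± 0.23 on the log2 scale (adjusted p 0.0145), and the call was lost without either *ss4-1* library of ZT0 (0.065 and 0.082). *ACS7*, an ACC synthase gene of ethylene synthesis, averaged 2.76 CPM in *ss4-1* and 6.23 CPM in WT (-1.16, adjusted p 0.014). AT5G39580, a peroxidase superfamily gene, had 4.48 and 6.52 CPM at ZT-4 and 3.19 and 4.45 CPM at ZT0 in *ss4-1*, against 16.8 and 10.6 CPM at ZT-4 and 14.3 and 16.0 CPM at ZT0 in WT (-1.58, adjusted p 0.0012). AT5G64120, another peroxidase superfamily gene, had 17.8 and 35.6 CPM at ZT-4 and 19.1 and 18.9 CPM at ZT0 in *ss4-1*, against 45.1 and 53.2 CPM at ZT-4 and 41.9 and 45.4 CPM at ZT0 in WT (-1.03, adjusted p 0.0065). In each of these genes the *ss4-1* values lay under the WT values at both times.

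*FTM1*, a stearoyl-acyl-carrier-protein desaturase family gene, averaged 2.96 CPM in *ss4-1* and 12.2 CPM in WT, where the libraries ranged widely (4.64 to 20.8 CPM). *BCB*, a blue-copper-binding protein gene, averaged 2.01 CPM in *ss4-1* and 6.70 CPM in WT. AT5G35940, a mannose-binding lectin superfamily gene, had 2.74 and 2.09 CPM at ZT-4 and 2.55 and 2.84 CPM at ZT0 in *ss4-1*, against 8.01 and 5.46 CPM at ZT-4 and 5.93 and 7.08 CPM at ZT0 in WT (-1.37, adjusted p 0.0031). The remaining 5 falls, AT2G43620 (chitinase family), AT4G36700 (cupin superfamily), AT2G04050 (MATE efflux family), AT3G05400 (major facilitator superfamily), and AT4G25580 (a CAP160 protein), averaged at most 2.45 CPM in *ss4-1* and at most 4.78 CPM in WT, with log2 fold changes between -2.14 and -1.004. *BCB* and *THA1* were higher in *pgm* than in WT at ZT0, with log2 fold changes of 4.24 and 3.77, and AT4G25580 by 6.16, while *FTM1* was lower in *pgm* by 4.75.

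**Figure D5:**
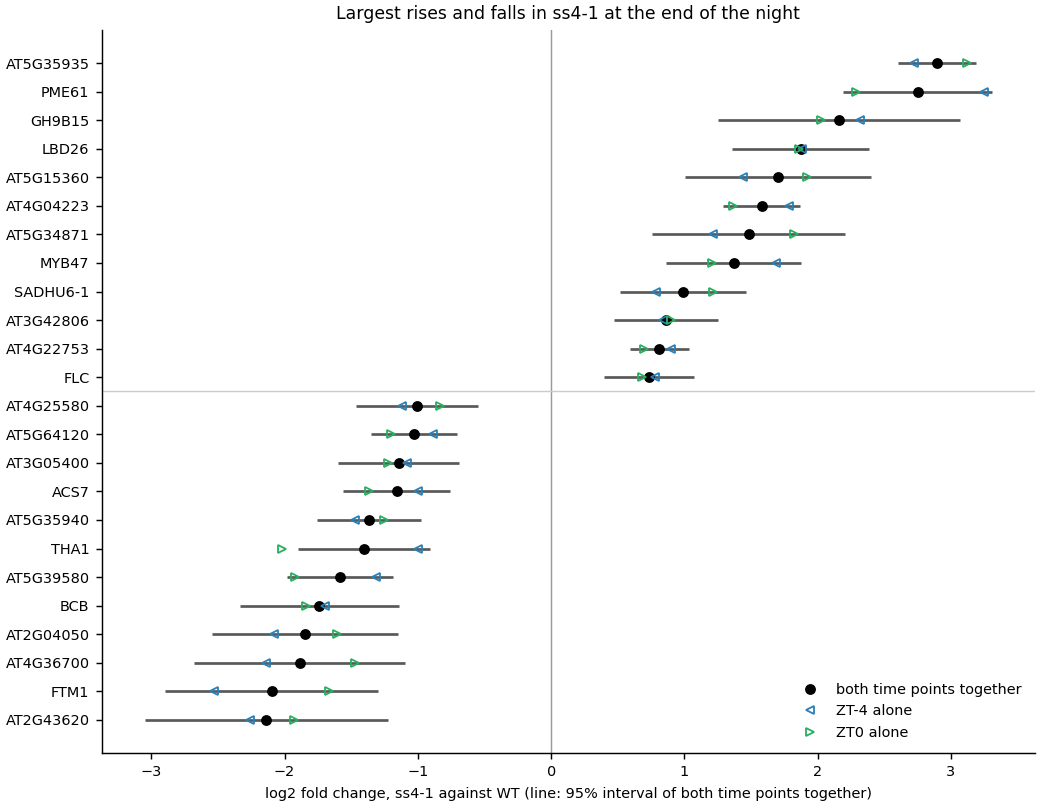
Log2 fold change, *ss4-1* against WT (x axis), of the 12 largest rises (above the grey line) and the 12 largest falls (below it) chosen by the rule; black points and lines are the estimate and 95% interval from both time points together, and open triangles are the estimates at ZT-4 (pointing left) and ZT0 (pointing right). AT5G35935 and *PME61* lie furthest right, at 2.90 and 2.75, and AT2G43620 lies furthest left, at -2.14; for *THA1* the ZT-4 estimate and the ZT0 estimate of -2.02 lie apart.

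Marker lists of other tissues and states were not called in either direction. Of 9 root markers, 0 were called and the median log2 fold change was -0.17, with 8 of 9 below 0, the lowest at -1.06, and with 1 higher and 3 lower at an unadjusted p under 0.05 and 1 called lower by DESeq2. Their summed level was 1898 and 1933 CPM at ZT-4 and 2085 and 1854 CPM at ZT0 in *ss4-1*, against 2269 and 2093 CPM at ZT-4 and 2011 and 1994 CPM at ZT0 in WT, and none was at 0. Seed storage genes, which mark undeveloped seed, summed to at most 0.796 CPM in *ss4-1* and at most 5.02 CPM in WT, and 0 of 9 passed the filter. RNA of whole seedlings was measured, so fewer cells of a type and less RNA per cell cannot be told apart. Of 15 clock genes, 0 were called by either tool, 1 was higher at an unadjusted p under 0.05, and *CCA1* averaged 421 CPM in *ss4-1* and 437 CPM in WT. Of 11 flavonoid genes, 0 were called, 2 were lower at an unadjusted p under 0.05, and DESeq2 called 1 lower. Of 7 light and oxidative stress genes and 5 salicylic acid genes, 0 were called by either tool, with 2 and 0 at an unadjusted p under 0.05.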

How the data were processed

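RNA-seq libraries of Arabidopsis seedlings were compared at 17°C. The authors processed reads with an in-house pipeline and deposited, for each of 33557 genes, a count of reads without normalization, with lanes of a library combined, and TPM, which were not tested here. The submitters' processing notes name FastQC, Trimmomatic, TopHat, Picard, and TAIR10, without versions. How reads were counted and whether strand was used are not given in the sources used here, so overlapping, antisense, and near-identical genes are uncertain. The labels name a stranded kit, another kit, and 2 centres, without saying which library had which, so these cannot be separated from genotype.

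The fits used edgeR 4.0.16 (R 4.3.3) with TMM, filterByExpr by group, glmQLFit, glmQLFTest, with time point and genotype as terms over 8 libraries (5 residual degrees of freedom), and Benjamini-Hochberg adjustment across every gene in the fit (threshold 0.05). Separate fits tested genotype by time point, 10 libraries at ZT0, and 32 libraries at 17°C. Errors are SE, and intervals are 95%. On simulated data with known changes the test recovered most changed genes, the smallest changes least often, and its share of unchanged genes among the calls was above the threshold of 0.05. A chi-square per degree of freedom was computed for the replicate pairs of the main comparison and of *pgm* at ZT0. It lay between 3.11 and 11, more than sampling noise alone gives. No p-value was computed for it, and other pairs were not examined. Groups of 2 are too small for an exact permutation test of single values.

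Genes were named by rule: *SS4*, the 12 largest non-overlapping rises and falls, every *DIN* gene, list members past the threshold or otherwise the 3 of each list with the highest CPM, *HSP70*, *HSP101*, and interaction calls. The 19 lists and members were chosen with earlier results of these data known. Of the files' genes, 32810 matched TAIR10.1 by locus for symbols. Upstream sequence was read from TAIR10.1 with its own gene bounds, and coordinates of genes are those of the files. Alternatives were DESeq2 1.42.0, its size factors, other filters, other sets of libraries and terms, and each library left out; leaving out the *ss4-1* libraries of ZT-4 was read for lists and named genes after seeing the data.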

Additional observations from a re-analysis of the deposited data

Results flagged for a closer look

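The *ss4-1* effect on *G3Pp1* (AT3G47420) differed between ZT0 and ZT-4, with a log2 difference of effects of 1.23 in the test of genotype by time point (edgeR, adjusted p 0.017). The gene was the only call of this test among 20013 genes.

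The *ss4-1* effect differed between the end of the night and ZT1 with ZT2 for 25 genes in the fit of all 32 libraries, 2 with a higher and 23 with a lower effect at the end of the night (edgeR, adjusted p under 0.05). *HSP70* and *HSP101* were among the 23.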

How the results depend on the processing

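Results of 226 single genes were recomputed under 19 alternatives. Of 4252 gene values, 4000 kept their side of the threshold, 211 were no longer past it, and 41 came past it. Most of the 226 genes were not past the threshold to begin with. The 211 losses therefore fell on the called genes alone, and the 4000 are no measure of how stable the calls were. Of the genes called, 0 changed sign.

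The count of 214 genes between *ss4-1* and WT became 794 without a filter on low counts, 57 with all 32 libraries in the fit, 3 with ZT-4 libraries only, 7 without a time term, and 102 with 4 groups and averaged contrasts. DESeq2 called 317, which included 186 of the 214, and ZT0 alone called 223, which included only 86 of them. Replicates of the same number deviated together with low correlations of 0.0308 to 0.121 between groups, all positive. The labels do not say whether replicates of the same number were grown or prepared together, so these values cannot decide whether the libraries are paired. With the replicate block the count was 579 (240 higher and 339 lower), which included all 214, and 2 *ATG8* genes were called. Without that block and with 1 library left out, the count ranged from 23 to 1810. The genotype by time point count of 1 became 2 with DESeq2, 18 without a filter, and 0 with all 32 libraries, stayed 1 with the replicate block, and ranged from 0 to 22 with 1 library left out. The 25 genes whose effect differed between night and morning became 173 without a filter, 57 with ZT2 alone as the light time point, and 45 with DESeq2, and were 25 with the replicate block. The *pgm* counts kept within 1.5 times under every alternative run, the replicate block included (11415 beside 11510 genes for *pgm* against WT, 10434 beside 10515 for *ss4-1* against *pgm*).

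Among the list medians, phosphate-starvation genes became -0.28 with ZT-4 libraries only and -0.0726 with ZT0 libraries only. With ZT0 only, sugar-induced genes became 0.0269, class II trehalose-phosphate synthases -0.0956, SnRK1 and bZIP genes 0.00478, and flavonoid genes -0.149. With 1 library left out, sugar-induced genes ranged from -0.242 to -0.0822, SnRK1 and bZIP genes from 0.0209 to 0.0691, flavonoid genes from -0.151 to -0.0731, and light and oxidative stress genes from -0.175 to 0.0648. The causes were not tested.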

Other observations

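AT5G35935 and its neighbour AT5G35940 on chromosome 5 are 933 bases apart and moved in opposite directions in *ss4-1*, with log2 fold changes of 2.90 and -1.37. They are 1 of 4 pairs of neighbouring tested genes that were both called and the only one with opposite signs, a pair singled out after its values were seen. At ZT0, AT5G35935 had 19.1 and 23.3 CPM in *ss3/4*, 0.843 and 0.835 CPM in *ss3/4/pgm*, 1.48 and 0.391 CPM in *pgm*, 23.1 and 21.4 CPM in *ss4-1*, and 2.63 and 2.46 CPM in WT. AT5G35940 had 0.584 and 0.689 CPM in *ss3/4*, 7.71 and 8.72 CPM in *ss3/4/pgm*, 7.42 and 5.86 CPM in *pgm*, 2.13 and 2.38 CPM in *ss4-1*, and 4.96 and 5.95 CPM in WT. The high level of AT5G35935 was thus present in *ss4-1* and *ss3/4* and absent from the triple mutant, which also carries *ss4*. Through the day AT5G35935 stayed between 18.5 and 27.8 CPM in *ss4-1* and between 2.00 and 5.15 CPM in WT.

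Genes near the mutated locus were called about as often as others. Within 1 Mb on either side of *SS4*, 3 of 372 tested genes (0.806%) were called, all lower in *ss4-1*, and within 2 Mb 10 of 766 (1.31%), against 1.07% of all genes. Over the 5 nuclear chromosomes the share ran from 0.926% on chromosome 5 to 1.48% on chromosome 4.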
